A study of Mus musculus with 2 samples.

Results

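The genes described here encode the nuclear subunits of the mitochondrial respiratory chain and ATP synthase. They were chosen by symbol, as all nuclear genes whose symbol starts with Ndufa, Ndufb, Ndufc, Ndufs or Ndufv, with Sdha to Sdhd, with Uqcr, with Cox4 to Cox8 or with Atp5. The mouse RefSeq gene table holds 119 such symbols, of which 100 are protein coding and 19 are pseudogenes. A probe named by its RefSeq accession was found for 95 of them, among 18434 genes named in this way on the array, and none of the 19 pseudogenes had one. The prefixes also take in 11 genes with a Ndufaf or Sdhaf symbol, whose proteins are assembly factors and not subunits, and these are described apart. Ndufa4 was placed with complex IV, of which its protein is a subunit. The protein-coding genes without a probe by accession were Ndufa4l2, Ndufaf8, Ndufb1, Ndufb4b and Ndufb4c, and they are not analysed here.

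RNA came from primary wild-type CD4 T cells of the C57BL/6 mouse spleen, purified magnetically to over 98% and measured on 2 single-colour Agilent arrays, 1 for each culture condition. The Th9+IFNgamma culture received IL-4 at 3 ng/ml, TGFbeta at 3 ng/ml and IFNgamma at 10 ng/ml. The Th9 culture received IL-4 at 10 ng/ml, TGFbeta at 3 ng/ml and an antibody to IFNgamma at 1 µg/ml. In both, the T cell receptor and CD28 were stimulated with antibodies for 2 days in the stated cytokines, and harvest came 3 days later, after 5 days in all. The cultures thus differed in IFNgamma, in IL-4 dose and in the antibody together, and their parts in any difference cannot be told apart. The labels do not say how many mice stand behind a culture, and by its title the series concerns a route to Th1 cells through IL-4 and TGFbeta.

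The respiratory chain passes electrons from NADH (complex I) and succinate (complex II) through ubiquinone, complex III and cytochrome c to oxygen at complex IV. Complexes I, III and IV pump protons across the inner mitochondrial membrane, and ATP synthase, complex V, makes ATP from their return. Activated T cells enlarge their mitochondria and use both glycolysis and respiration, and several complex IV subunits exist as paralogous isoforms with different tissue ranges.

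Values are scaled signals, that is, background-subtracted intensities brought to the same 75th percentile on both arrays. They compare 1 probe between the 2 arrays and do not compare probes with each other. A log2 difference is Th9+IFNgamma minus Th9. With 1 array per condition there is no replicate and no test, so differences are described by size against limits of 2-fold and 1.5-fold and against all genes measured. The Th9+IFNgamma array had 60.6% of 41171 probes well above background and the Th9 array 59.9%, without saturated spots. The median log2 difference of 12272 measured genes was -0.01. For 144 probes present as 10 spots each, the log2 difference of single spots scattered around its probe's mean with an SD of 0.14 (1365 spots), which was 0.04 in the brightest class of signals and 0.27 in the dimmest. That spread covers spots on an array and not cultures. All 10 T cell identity genes were well above background on both arrays, among them Cd4 at 502 in Th9+IFNgamma and 444 in Th9. Their median log2 difference was 0.19, above that of the respiratory genes, with 7 above 0, Cd247 2.13-fold higher and Cd3g lowest at -0.35. In bulk RNA, fewer cells of a type and less RNA per cell cannot be told apart.

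The respiratory genes differed little between the cultures. Of the 95 genes, 91 were well above background on both arrays, and 86 of these (94.5%) lay within 1.5-fold, against 71.9% of all genes measured. At least 2-fold differences were found in 1 gene that was higher in Th9+IFNgamma, Cox6a2, and in 1 that was lower, Cox6b2. Over all 12272 genes 5.15% were higher by this limit and 7.42% lower. At 1.5-fold, 4 of the 91 were higher (Cox6a2, Ndufaf3, Ndufaf7 and Ndufa5), where 12.6% of all genes were, and only Cox6b2 was lower, where 15.5% of all genes were. The small differences lay mostly to one side: 63 of the 91 were above 0, where 49.6% of all genes were, and 28 were below it, with a median log2 difference of 0.11 (SD over genes 0.32). With the arrays scaled on their medians, which raises every gene by the same amount and the median of all genes to 0.11, 77 of the 91 lay above 0. Relative to the median of all genes, 63 of the 91 were above it as reported, 56 with quantile normalization, 57 of 90 with a signal of at least 100 on both arrays and 72 with normexp, another background correction.

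Most of these genes gave bright signals, for which spot noise is low. In 87 of the 91 both scaled signals were at least 1000, a limit set after the values were seen. Within these 87 the median log2 difference was 0.13 and 70.1% were above 0, with 3 genes higher and 0 lower by at least 1.5-fold. The 5691 genes of all kinds with signals this bright had a median of 0.06 and 56.8% above 0, of which 10.6% were higher and 7.91% lower by that limit and 81.5% lay within it, against 96.6% of the 87. The extraction software's own error for the log2 difference had a median of 0.20 over the 91 genes and ran up to 0.27. By that measure 20 of the 91 (22.0%) differed by more than 2 errors, 14 higher and 6 lower in Th9+IFNgamma, against 39.5% of all genes. Where a gene had several measured probes, these gave the same sign in 19 of 20 genes, and the median gap between the highest and lowest probe of a gene was 0.05 on the log2 scale.

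**Figure D1:**
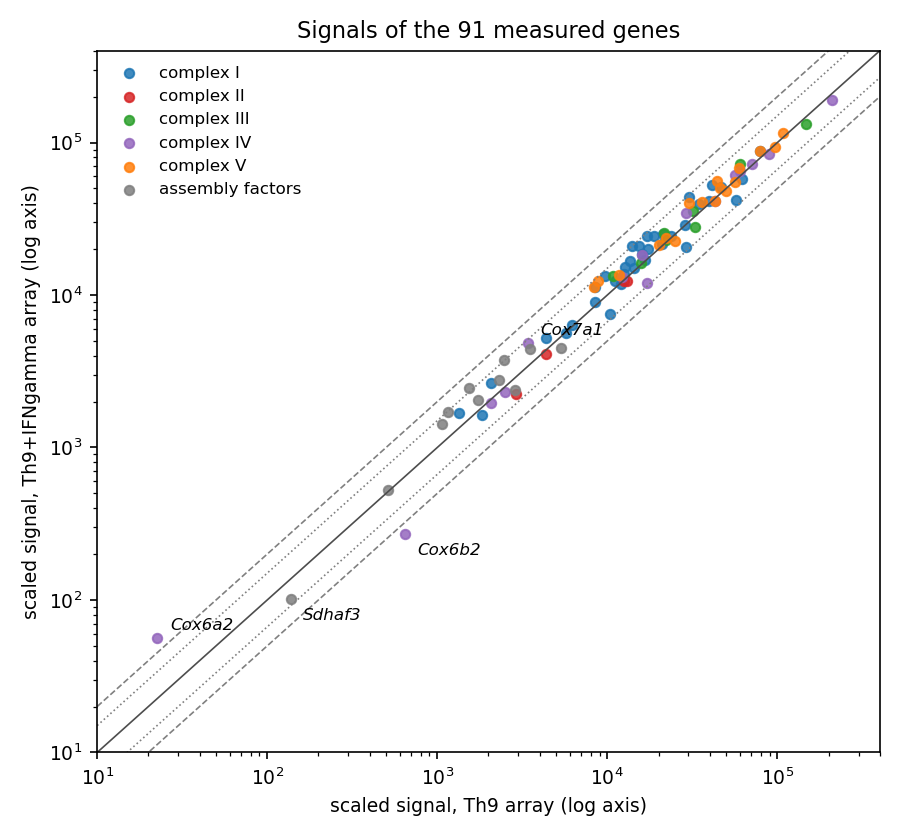
Scaled signal on the Th9+IFNgamma array (y axis) against the Th9 array (x axis), both on log axes, for the 91 genes measured on both; the solid line marks equal signals, dotted lines 1.5-fold and dashed lines 2-fold. Of these genes 86 lie between the dotted lines, and Cox6a2 and Cox6b2 lie outside the dashed ones.

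**Figure D2:**
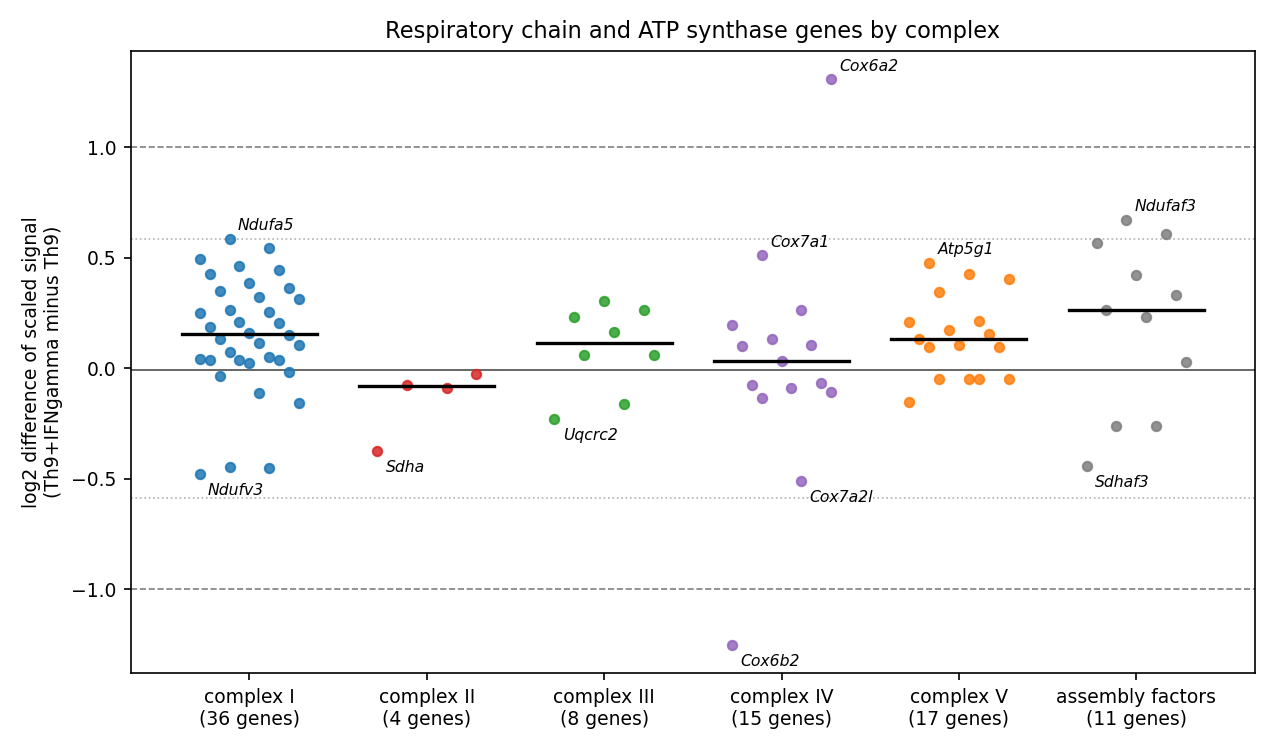
Log2 difference of scaled signal (Th9+IFNgamma minus Th9) of each measured gene, by complex, with a black bar at each median, dotted lines at 1.5-fold, dashed lines at 2-fold and a thin line at the median of all genes. The medians are 0.15 for complex I, -0.08 for II, 0.11 for III, 0.04 for IV, 0.13 for V and 0.26 for the assembly factors.

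Complex I genes were mostly a little higher in Th9+IFNgamma. Of 36 measured genes 29 were above 0 and 7 below, with a median log2 difference of 0.15 and a range of -0.48 to 0.59, and 1 gene reached 1.5-fold. The 7 core subunits encoded in the nucleus, which carry flavin, iron-sulfur clusters or the ubiquinone pocket, had a median of 0.16, and the other 29 genes one of 0.15. Among the core subunits, Ndufs8, which holds iron-sulfur clusters on the path to ubiquinone, had the largest difference, with 2662 in Th9+IFNgamma against 2068 in Th9 (0.36). Ndufv2, an iron-sulfur subunit beside the NADH site, had 5212 in Th9+IFNgamma against 4387 in Th9 (0.25). Both were thus higher in Th9+IFNgamma, by 1.29-fold and 1.19-fold.

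Ndufs7, the subunit with the last iron-sulfur cluster before ubiquinone, had 18525 in Th9+IFNgamma against 16068 in Th9, a log2 difference of 0.21. Ndufs1, the largest of the core subunits and an iron-sulfur protein, had 12319 in Th9+IFNgamma against 11043 in Th9 (0.16). Ndufv1, which binds NADH and flavin, was almost level, with 21637 in Th9+IFNgamma against 21080 in Th9. Ndufs3, a core subunit of the matrix arm, had 11781 in Th9+IFNgamma against 12067 in Th9. Their log2 differences of 0.04 and -0.03 were no larger than the SD between bright spots of 1 probe.

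The largest differences of complex I were in supernumerary subunits, which surround the core and make up 29 of the 36 measured genes. As a group these did not lie above the core subunits, with medians of 0.15 and 0.16. Ndufa5, a subunit of the matrix arm, was the only subunit of complexes I, II, III and V to reach 1.5-fold, with 20872 in Th9+IFNgamma against 13902 in Th9 (log2 difference 0.59), just past the limit. Under 4 of the other settings it was 0.50 to 0.56, below 1.5-fold. The others above 0.40, chosen after their values were seen, were Ndufb7, Ndufb3, Ndufc1, Ndufb2 and Ndufa3, all supernumerary subunits. The upper quartile of the log2 difference was 0.33 over complex I and 0.31 over all genes measured. Ndufb7, which lies on the intermembrane side of the membrane arm, had 44097 in Th9+IFNgamma against 30289 in Th9 (0.54). Ndufb3, a membrane arm subunit, had 24301 in Th9+IFNgamma against 17226 in Th9 (0.50). Ndufc1, Ndufb2 and Ndufa3 had log2 differences of 0.46, 0.45 and 0.43, and both probes of Ndufc1 lay above 0.

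By symbol, 11 of 13 Ndufa genes and 8 of 10 Ndufb genes of complex I were above 0, with medians of 0.15 and 0.12. Both Ndufc genes were above 0, as were Ndufs4, Ndufs5 and Ndufs6, accessory subunits of the same complex, at 0.26, 0.35 and 0.31. Below 0 stood a smaller set, of which 3 genes differed by more than 2 software errors. Ndufa1, a small membrane subunit needed for assembly, had 42089 in Th9+IFNgamma against 57396 in Th9 (-0.45), and its other probe gave -0.43. Ndufa6, a subunit that binds the acyl carrier protein Ndufab1, had 7560 in Th9+IFNgamma against 10332 in Th9 (-0.45). Ndufv3, a small subunit near the NADH site, had the lowest value of the complex at 20767 in Th9+IFNgamma against 28930 in Th9 (-0.48). Its other probes did not show this difference, with 2243 in Th9+IFNgamma against 2349 in Th9 (-0.07) for one and 1329 in Th9+IFNgamma against 1320 in Th9 (0.01) for the other, and it was the only gene of the 20 whose probes differed in sign.

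Complex II, succinate dehydrogenase, which also works in the tricarboxylic acid cycle, was the only complex with a median below 0. All 4 subunits were slightly lower in Th9+IFNgamma, with a median log2 difference of -0.08 where that of all genes was -0.01, and 0.03 with median scaling, where that of all genes was 0.11. Sdha, the flavin subunit that oxidises succinate, had 2253 in Th9+IFNgamma against 2917 in Th9 (-0.37). Its other probe had 1777 in Th9+IFNgamma against 1805 in Th9 (-0.02), so that the size for Sdha rests on 1 probe. Sdhb, the iron-sulfur subunit, had 12317 in Th9+IFNgamma against 12527 in Th9 (-0.02). The membrane anchors Sdhc and Sdhd had 4096 and 12386 in Th9+IFNgamma against 4353 and 13047 in Th9, with log2 differences of -0.09 and -0.07. The largest of these 3 differences, for Sdhc, was 1.06-fold.

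Complex III, the cytochrome bc1 complex, had 6 of its 8 nuclear genes above 0 and a median log2 difference of 0.11. The 5 small subunits had a median of 0.23, and the core proteins with the Rieske protein one of 0.06. Uqcrb, which helps form the ubiquinone-binding region, was highest, with 13253 in Th9+IFNgamma against 10739 in Th9 (0.30). Uqcrq, a small subunit next to cytochrome b, had 72709 in Th9+IFNgamma against 60638 in Th9 (0.26). Uqcr11 and Uqcr10, the smallest subunits, had log2 differences of 0.23 and 0.17. The larger of these, for Uqcr11, was 1.18-fold.

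The core protein Uqcrc1 had 23099 in Th9+IFNgamma against 22167 in Th9 (0.06), and its partner Uqcrc2 had 27818 in Th9+IFNgamma against 32629 in Th9 (-0.23). With another background correction, the normexp model, the log2 difference of Uqcrc2 was -0.08. Uqcrfs1, the Rieske iron-sulfur protein that hands electrons to cytochrome c1, had 16327 in Th9+IFNgamma against 15680 in Th9 (0.06). Uqcrh, the acidic hinge protein, had 132357 in Th9+IFNgamma against 148091 in Th9 (-0.16). Cyc1, cytochrome c1 itself, falls outside the symbol rule and had 23549 in Th9+IFNgamma against 19929 in Th9 (0.24).

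Complex IV, cytochrome c oxidase, held both genes with at least 2-fold differences and was evenly split otherwise. Of the 19 genes with a probe, 15 were measured on both arrays, 8 above 0 and 7 below, with a median log2 difference of 0.04. Without the tissue isoforms Cox6a2, Cox6b2 and Cox7a1, the remaining 12 genes were split 6 to 6, with a median of -0.01 and a range of -0.51 to 0.26. The widely expressed subunits that frame the catalytic core were close to level. Cox4i1, which regulates the enzyme through its matrix side, had 84744 in Th9+IFNgamma against 89345 in Th9 (-0.08). Cox5a and Cox5b, on the matrix side, had 64950 and 61491 in Th9+IFNgamma against 60554 and 56156 in Th9 (0.10 and 0.13). Cox6c, a membrane subunit, had 41366 in Th9+IFNgamma against 43257 in Th9 (-0.06).

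The isoform pairs of complex IV are where the 2-fold differences stood. Cox6a2 is the heart and skeletal muscle form of subunit VIa, and Cox6a1 its widely expressed partner. Cox6a2 had 55.9 in Th9+IFNgamma against 22.6 in Th9, 2.48-fold higher, at dim signals, for which the SD between spots was 0.27. With the normexp background correction, which adds 50 to every signal, its log2 difference was 0.40 in place of 1.31. Cox6a1 had 190673 in Th9+IFNgamma against 209006 in Th9 (-0.13), and 0.09 with quantile normalization.

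Cox6b2 is the testis form of subunit VIb, which faces the cytochrome c side, and Cox6b1 the widely expressed form. Cox6b2 had 272 in Th9+IFNgamma against 647 in Th9, 2.38-fold lower, with log2 differences of -1.27 to -1.06 under all settings tried. Cox6b1 had 1944 in Th9+IFNgamma against 2067 in Th9 (-0.09). The difference of Cox6b2 was thus not shared by its widely expressed partner, and each of these genes was measured by 1 spot per array.

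Cox7a1, the heart and muscle form of subunit VIIa, had 4845 in Th9+IFNgamma against 3398 in Th9, 1.43-fold higher (0.51). Cox7a2, the widely expressed form, had 34713 in Th9+IFNgamma against 28908 in Th9 (0.26). Cox7a2l, a relative of both, went the other way, with 11991 in Th9+IFNgamma against 17090 in Th9, 1.43-fold lower (-0.51). Its difference was equal in size to that of Cox7a1 and opposite in sign.

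The remaining isoforms were close to level, detected on 1 array or detected on neither. Cox7b and Cox8a, widely expressed membrane subunits, had 18428 and 72453 in Th9+IFNgamma against 16069 and 70707 in Th9 (0.20 and 0.04). Ndufa4 had 13203 in Th9+IFNgamma against 12271 in Th9 (0.11), and Cox7c, another small membrane subunit, had a log2 difference of -0.11. Cox4i2, the lung form of subunit IV, was well above background in Th9 alone, with 6.69 in Th9+IFNgamma and 15.4 in Th9. The software's error for its log2 difference was 0.59. Cox7b2, at 15.8 in Th9, was not well above background there, so no size is given for Cox4i2. Neither array detected Cox7b2, Cox8b or Cox8c well above background, with signals of 2.29 to 4.13 in Th9+IFNgamma and 2.55 to 15.8 in Th9.

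**Figure D3:**
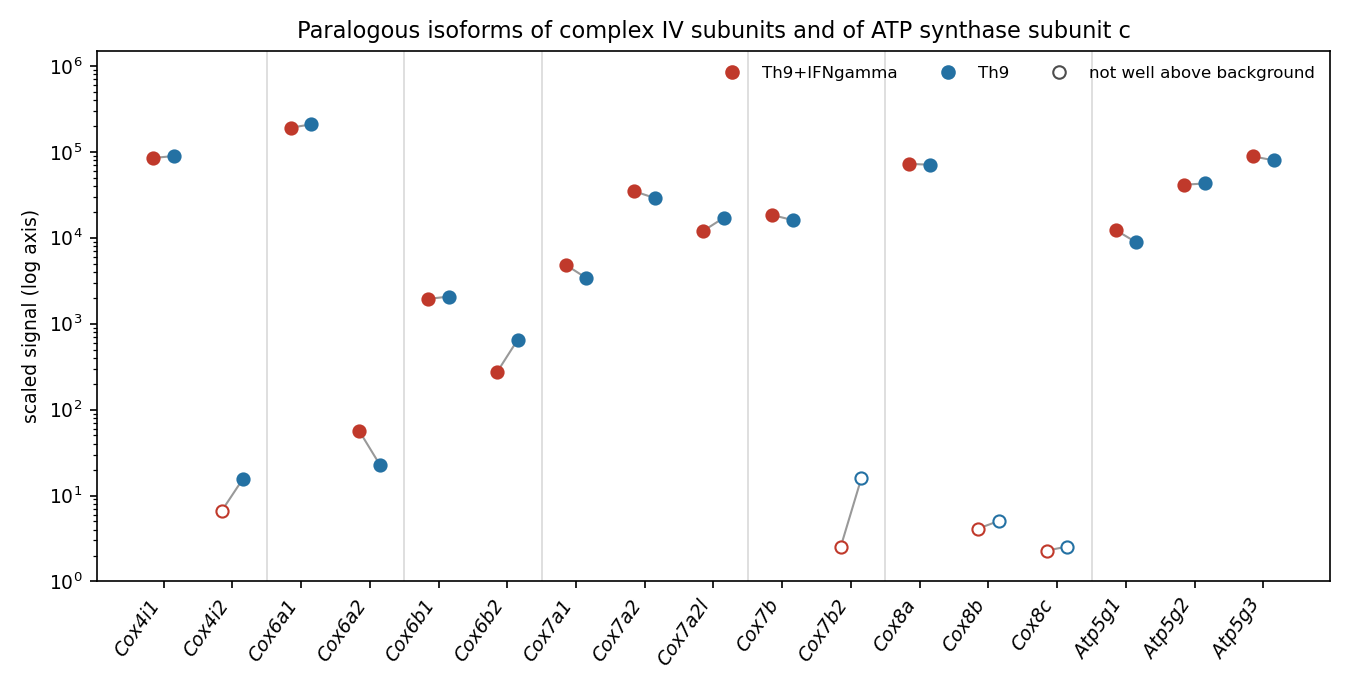
Scaled signals (log axis) of paralogous isoforms of complex IV subunits and of ATP synthase subunit c, with Th9+IFNgamma in red to the left of Th9 in blue for each gene, and open circles where a probe was not well above background. Cox6a2 (55.9 in Th9+IFNgamma, 22.6 in Th9) and Cox6b2 (272 in Th9+IFNgamma, 647 in Th9) have the steepest lines among genes measured on both arrays.

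Promoters of 5 of these isoforms are shown because the isoform pairs held the largest signal differences, and the widely expressed forms can be set beside the tissue forms. Cox6a2 had no promoter window in the RefSeq table, so Cox6a1 is shown without its tissue form. They come from RefSeq, build GRCm38.p6, and each line gives the 250 bases before the annotated start, 5′ to 3′ on the gene's strand. Capitals mark matches, on either strand, to the letters searched for 4 elements: GCGCANGCG for NRF1, CCGGAAG for ETS factors such as GABP, AAGATGGC for YY1, and CCAAT. Cox6b2 lies at chr7:4753095-4753344 (minus strand), Cox6b1 at chr7:30626115-30626364 (minus strand), Cox7a1 at chr7:30183921-30184170 (plus strand), Cox7a2 at chr9:79759854-79760103 (minus strand) and Cox6a1 at chr5:115348959-115349208 (minus strand).
Cox6b2: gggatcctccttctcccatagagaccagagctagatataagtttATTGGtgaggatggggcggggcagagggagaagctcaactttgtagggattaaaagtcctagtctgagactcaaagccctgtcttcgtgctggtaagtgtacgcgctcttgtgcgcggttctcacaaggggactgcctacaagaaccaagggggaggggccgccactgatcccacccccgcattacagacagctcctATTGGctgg
Cox6b1: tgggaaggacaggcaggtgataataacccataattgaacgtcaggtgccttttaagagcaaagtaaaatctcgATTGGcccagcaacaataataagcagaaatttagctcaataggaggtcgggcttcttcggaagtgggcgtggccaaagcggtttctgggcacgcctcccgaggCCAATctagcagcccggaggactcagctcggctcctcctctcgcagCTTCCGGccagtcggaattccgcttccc
Cox7a1: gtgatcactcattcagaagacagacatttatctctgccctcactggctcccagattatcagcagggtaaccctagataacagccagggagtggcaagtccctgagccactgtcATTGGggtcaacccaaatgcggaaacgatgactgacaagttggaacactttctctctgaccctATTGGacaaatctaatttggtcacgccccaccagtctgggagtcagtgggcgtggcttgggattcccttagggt
Cox7a2: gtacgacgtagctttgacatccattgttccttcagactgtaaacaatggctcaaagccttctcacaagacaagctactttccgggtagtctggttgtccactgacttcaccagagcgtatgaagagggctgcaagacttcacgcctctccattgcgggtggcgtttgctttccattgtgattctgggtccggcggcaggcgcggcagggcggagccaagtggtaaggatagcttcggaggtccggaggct
Cox6a1: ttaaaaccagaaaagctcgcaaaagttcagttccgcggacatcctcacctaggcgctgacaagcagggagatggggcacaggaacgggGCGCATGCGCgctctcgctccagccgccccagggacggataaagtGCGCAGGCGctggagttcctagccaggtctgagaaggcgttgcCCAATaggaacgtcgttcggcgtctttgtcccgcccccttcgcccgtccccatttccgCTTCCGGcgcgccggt
In Cox6b2 and Cox7a1, the tissue forms, these 250 bases held 8 and 4 CpG dinucleotides and matches to CCAAT alone. Cox6b1 had 14 CpG dinucleotides, an ETS match and 2 CCAAT matches. Cox6a1 had 26 CpG dinucleotides, an ETS match, 1 CCAAT match and 3 NRF1 matches, 2 of which overlap on opposite strands. Cox7a2 had 14 CpG dinucleotides and no match to these letters. A match is a description of the letters and not a bound site.

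Over all members, 79 of 95 genes had such a window in the RefSeq table, in 84 windows that run from 250 bases before the start to 50 after it. The NRF1 letters stood in 29.8% of these windows, against 8.58% of 21263 windows of 17492 protein-coding genes, the ETS letters in 25% against 11.6%, and the YY1 letters in 11.9% against 3.05%. NRF1, GABP and YY1 are textbook regulators of nuclear genes for respiration. The CCAAT letters stood in 41.7% against 38.2%, and the letters TTCNNNGAA, the element bound by STAT factors, in 7.14% against 7.69%. The windows of the members had a median of 20 CpG dinucleotides, against 13 over all windows.

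Whether the signal differences follow the NRF1, ETS or YY1 letters was not tested, and the medians are given as a description. Measured genes with the NRF1 letters had a median log2 difference of 0.07 (24 genes), against 0.13 in the 53 without them. With the ETS letters the median was 0.09 (21 genes), against 0.13 in the 56 without them. With the YY1 letters it was 0.29 (10 genes), against 0.10 in the 67 without them.

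Complex V, ATP synthase, had 12 of 17 genes above 0 and a median log2 difference of 0.13, and none reached 1.5-fold. The catalytic F1 head was nearly level, with a median of -0.05 over its 5 subunits. The c ring and the 9 genes of the stalks and the membrane part had medians of 0.15 and 0.17. Atp5b, the beta subunit that holds the catalytic sites, had 115174 in Th9+IFNgamma against 107617 in Th9 (0.10). Atp5a1, the alpha subunit, had 54772 in Th9+IFNgamma against 56705 in Th9 (-0.05), and Atp5c1, the gamma subunit that turns inside the head, had 94082 in Th9+IFNgamma against 97213 in Th9 (-0.05). Both lay within 1.04-fold.

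Atp5d, the delta subunit at the foot of the rotor, was lowest in complex V, with 22497 in Th9+IFNgamma against 25009 in Th9 (-0.15). Its partner Atp5e, the epsilon subunit, had 68571 in Th9+IFNgamma against 59225 in Th9 (0.21). Atp5o, the protein that ties the outer stalk to the head, had 40789 in Th9+IFNgamma against 36213 in Th9 (0.17). The head and its stalk thus spanned a range from slightly below to slightly above level.

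Atp5g1, Atp5g2 and Atp5g3 encode the same mature subunit c of the proton-driven ring. Atp5g1 was highest in complex V, with 12304 in Th9+IFNgamma against 8840 in Th9, 1.39-fold higher (0.48). Atp5g3 had 88520 in Th9+IFNgamma against 79516 in Th9 (0.15), and Atp5g2 had 41400 in Th9+IFNgamma against 42852 in Th9 (-0.05). The 3 other genes above 0.30, chosen after their values were seen, were Atp5k (subunit e), Atp5j2 (subunit f) and Atp5j (subunit F6), at 0.43, 0.40 and 0.34. Values of this size were not particular to complex V. The upper quartile of the log2 difference was 0.31 over all genes measured and 0.21 over complex V. Atpif1, the ATP synthase inhibitor, which falls outside the symbol rule, had 47058 in Th9+IFNgamma against 52387 in Th9 (-0.15).

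The assembly factors among the members had the highest median, 0.26, over 11 genes, 8 above 0 and 3 below. Ndufaf3, which helps build the arm of complex I that binds ubiquinone, had 2446 in Th9+IFNgamma against 1534 in Th9, 1.59-fold higher (0.67). Ndufaf7, a methyltransferase that acts during assembly of complex I, had 3743 in Th9+IFNgamma against 2458 in Th9, 1.52-fold higher (0.61), and its second probe gave 0.51. Under 6 of the other settings its log2 difference was 0.51 to 0.58, below 1.5-fold. Of the 7 Ndufaf genes 6 were above 0, and Ndufaf4 was the exception at -0.26. The 4 Sdhaf genes, for complex II, were split 2 to 2. Sdhaf4, which helps flavin-loaded Sdha join Sdhb, had 1714 in Th9+IFNgamma against 1156 in Th9 (0.57), whereas Sdhaf3, a factor for Sdhb, had 101 in Th9+IFNgamma against 137 in Th9 (-0.44).

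Assembly factors outside the symbol rule were taken from 4 further lists. For complex I, 7 of 9 were above 0, with a median of 0.27, none at least 1.5-fold higher and Dmac2 1.51-fold lower. For complex III, 3 of 5 were above 0 (median 0.09), and Ttc19, which helps to clear fragments of the Rieske protein, was 1.65-fold lower. For complex V, 3 of 4 were above 0 (median 0.11). For complex IV, 17 of 22 were above 0 with a median of 0.06. By at least 1.5-fold, 2 of the 22 were higher and 1 lower, where 12.6% and 15.5% of all genes were. Sco1, which delivers copper to the enzyme, had 226 in Th9+IFNgamma against 461 in Th9, 2.05-fold lower with both probes lower. Cmc2, a small twin-cysteine protein, was 1.96-fold higher with all 3 probes higher, and Cox20, a chaperone of the copper-binding subunit encoded in mitochondrial DNA, was 1.73-fold higher.

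Among the genes that feed electrons into the chain, single genes differed more than the list as a whole. Among 17 electron carriers and ubiquinone synthesis genes, 11 were above 0 with a median of 0.02, and 3 of the 17 were at least 2-fold lower, where 7.42% of all genes were. Gpd2, the glycerol-3-phosphate dehydrogenase that passes cytosolic electrons to ubiquinone, had 734 in Th9+IFNgamma against 2058 in Th9, 2.80-fold lower with both probes lower. Coq8a, needed for ubiquinone synthesis, had 155 in Th9+IFNgamma against 388 in Th9, 2.50-fold lower. Sqor, the sulfide oxidoreductase that also reduces ubiquinone, had 289 in Th9+IFNgamma against 652 in Th9, 2.26-fold lower. No gene of this list was at least 1.5-fold higher.

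The carriers that exchange ATP, ADP and phosphate across the mitochondrial membranes were mostly lower. Of 7 measured, 6 were below 0 and the median was -0.44. Vdac1, the main pore of the outer membrane, had 45228 in Th9+IFNgamma against 73290 in Th9, 1.62-fold lower, and both probes were lower. Slc25a5, an ADP/ATP carrier, had 102269 in Th9+IFNgamma against 146217 in Th9 (-0.52), and Ucp2, a carrier of the uncoupling protein family, had 3924 in Th9+IFNgamma against 5727 in Th9 (-0.55). Ucp3, detected in Th9 alone, had a dim signal of 19.4 in Th9 and 2.37 in Th9+IFNgamma.

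In the tricarboxylic acid cycle 12 of 15 genes were below 0, with a median of -0.19, and none reached 2-fold. The regulators of mitochondrial genes had a median of -0.05 over 17 genes. Nrf1, the factor of the NRF1 letters, had 599 in Th9+IFNgamma against 312 in Th9, 1.92-fold higher with both probes higher. Gabpb2, a subunit of the ETS factor GABP, was 2.45-fold higher at dim signals of 53.4 in Th9+IFNgamma and 21.8 in Th9, whereas Gabpa, which binds the DNA, was at 0.26. Tfb1m, a mitochondrial ribosomal RNA methyltransferase, was 1.70-fold higher, while Polg, the mitochondrial DNA polymerase, was 1.92-fold lower and Pprc1, a coactivator of the PGC-1 family, 1.75-fold lower. None of the 13 subunits encoded in mitochondrial DNA had a probe by accession, so they are not analysed here.

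**Figure D4:**
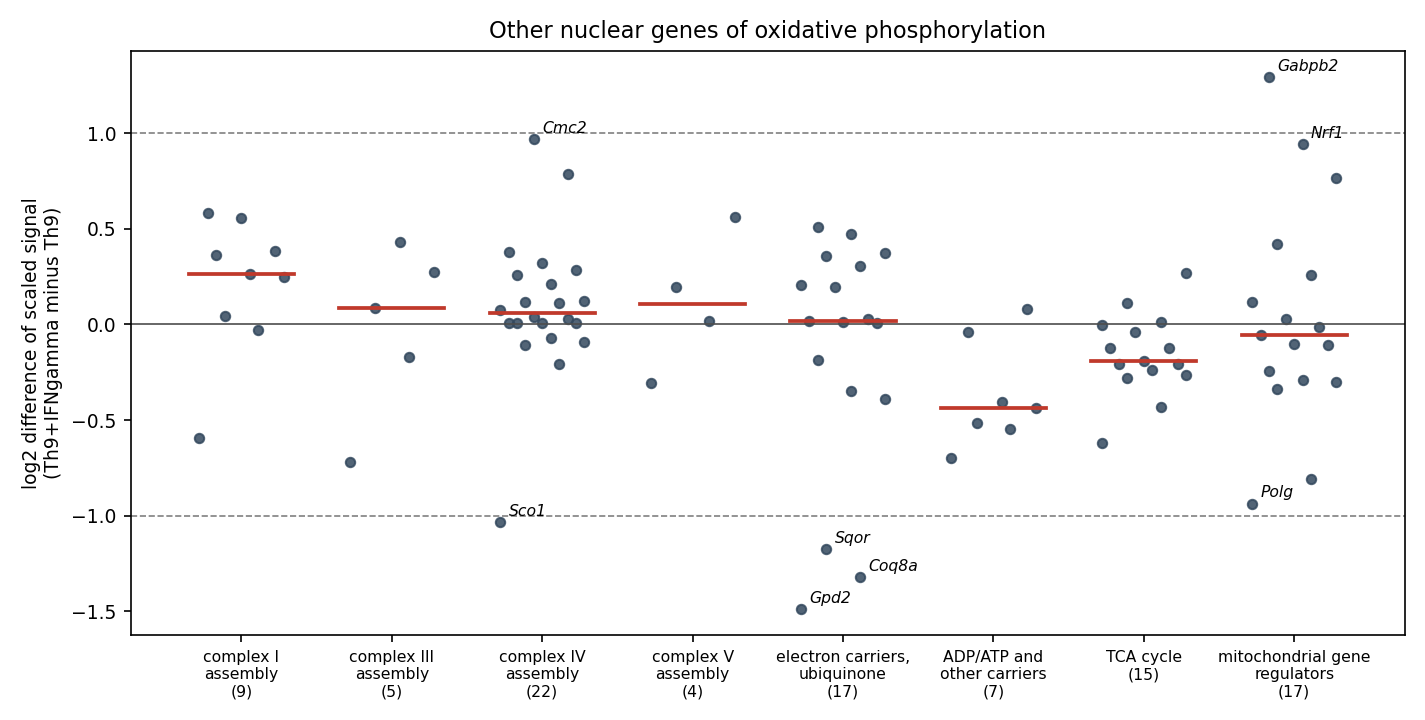
Log2 difference of scaled signal (Th9+IFNgamma minus Th9) of genes outside the symbol rule, in 8 lists with the number measured in parentheses, a red bar at each median and dashed lines at 2-fold. The median is lowest for the ADP/ATP and other carriers (-0.44) and highest for the complex I assembly factors (0.27).

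Some markers of other cell types were well above background on both arrays and others on neither, and several differed between the arrays. The sums below add unlike probes and do not measure how many such cells were present. For B cells, 3 of 7 markers were well above background on both arrays and 2 in Th9 alone, with a summed signal of 941 in Th9+IFNgamma and 1467 in Th9, and Pax5 was not well above background. Cd79b made the larger part of this gap, with 844 in Th9+IFNgamma and 1187 in Th9. Cd22 made a smaller part, with 8.41 in Th9+IFNgamma and 148 in Th9. All 3 measured B cell markers were lower in Th9+IFNgamma. For NK cells, 2 of 4 were measured, with sums of 41.2 in Th9+IFNgamma and 120 in Th9, and Ncr1 was not well above background. For monocytes and macrophages, 3 of 7 were measured, with sums of 97.3 in Th9+IFNgamma and 253 in Th9, a gap that came from Adgre1 alone (25.8 in Th9+IFNgamma, 186 in Th9), and Lyz2, Itgam, Fcgr1 and Mrc1 were not well above background. Of the dendritic cell markers 4 of 5 were measured, with sums of 3412 in Th9+IFNgamma and 28727 in Th9, nearly all from Batf3, which activated T cells also make, and Siglech was not well above background. Of 4 granulocyte markers 1 was measured, with sums of 33.5 in Th9+IFNgamma and 47.4 in Th9, and S100a8 and S100a9 were not well above background. Of 3 erythroid markers 2 were measured, with sums of 209 in Th9+IFNgamma and 88.8 in Th9. The CD8 T cell marker Cd8a had 1338 in Th9+IFNgamma and 1074 in Th9. The part of these cells in the values above was not tested.

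Over the settings tried, the median of all members was 0.06 to 0.23, that of complex I 0.06 to 0.27, that of complex III 0.03 to 0.23 and that of complex V 0.07 to 0.25. Complex II ran from -0.16 to 0.03 and complex IV from -0.08 to 0.15. Since scaling on the median raises all genes alike, the medians are best read against that of all genes. The percentile over detected probes also shifts all genes alike. The authors' log2 table nearly does so, being centred close to the 75th percentiles used here. Settings of this kind could not change where a complex lies against all genes. The filters left the medians of complexes I, II, III and V unchanged, so that for these only the median of all genes moved. Complex II lay below it in 11 of 12 settings, the exception being no filter on dim probes, where the median of all genes was -0.12. Complex IV lay above it in 10 of 12 settings, and below it with detection on at least 1 array and with a signal of at least 100 on both arrays.

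**Figure D5:**
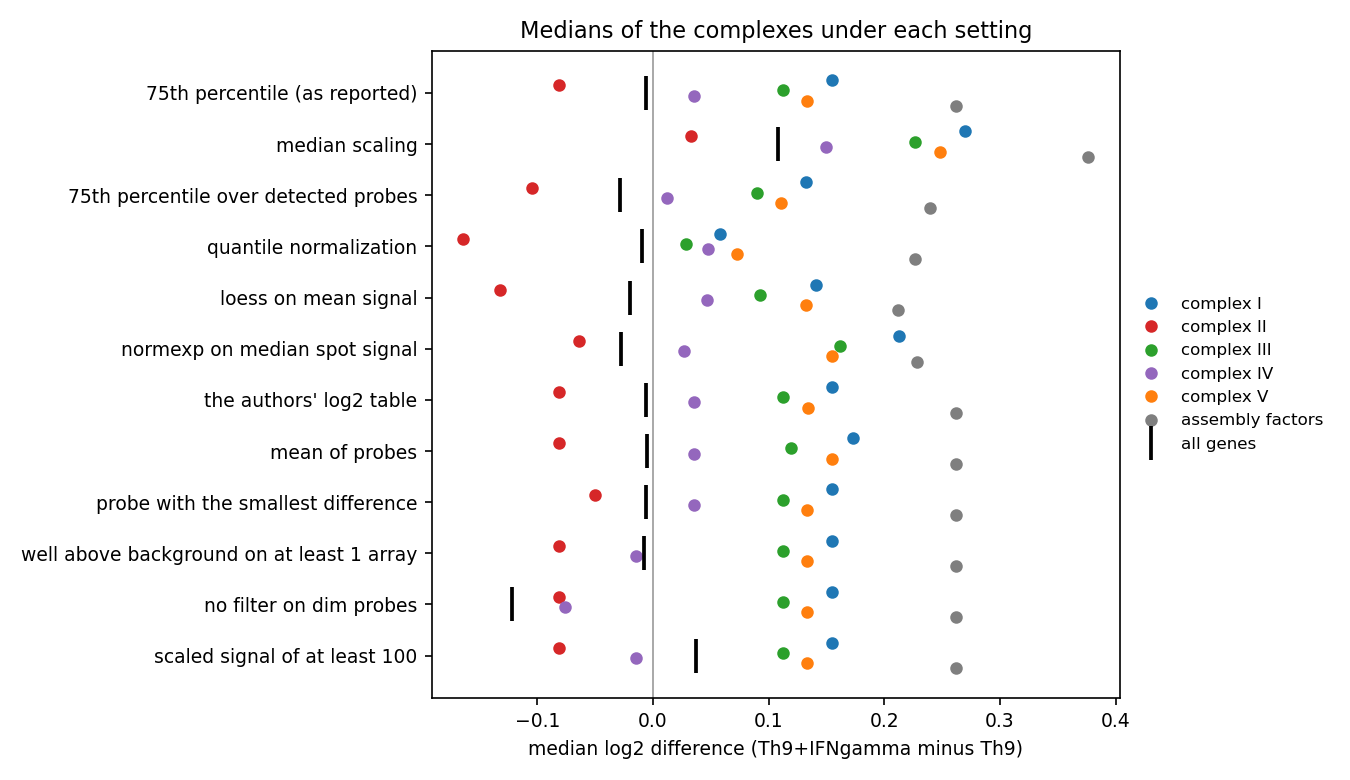
Median log2 difference (Th9+IFNgamma minus Th9) of each complex under the reported setting and 11 others, with a black bar at the median of all genes. Complex II lies left of the bar of all genes in 11 of the 12 settings and complexes I, III and V to its right in all of them. Median scaling, the percentile over detected probes and the authors' log2 table shift genes alike or nearly so. They could not move a complex past the bar.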

How the data were processed

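RNA of 2 cultures was hybridised to 2 single-colour arrays, 1 per condition, which lay on 1 slide and were read in 1 scan. Per the file headers, the authors' scanner intensity values come from Feature Extraction version 10.7.3.1 of Agilent (10.7 in the submitters' processing notes). Each processed intensity is background-subtracted within its array and was deposited without scaling between arrays. The authors also deposited a log2 table. Set against the scanner values, it is log2 of the median processed intensity minus 1 constant per array (SD of the offset 2.48e-07 and 2.21e-07 over 41174 probes, column medians -4.05 in Th9+IFNgamma and -3.93 in Th9), which settles its scale, its centring and its direction for use as an alternative.

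Log2 processed intensity was averaged over the non-control, non-outlier spots of each probe, less the 75th percentile of its array (631.9 in Th9+IFNgamma, 567.0 in Th9, brought to 598.6). Outlier flags fell on 99 and 71 non-control spots. A gene took the value of its brightest probe that both arrays measured well above background (12272 genes, from 23628 such probes). Accessions, without versions, were matched to the RefSeq gene table of GRCm38.p6: 27050 probes matched 1 gene, 0 several and 14121 none, and unnamed probes were left out. A few single-gene results are not reported here. The array headers name another build, so no coordinates are given for probes.

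The members and lists were chosen with earlier results of these data known. Named genes are the core subunits and isoforms, every member at least 1.5-fold apart or detected on 1 array, the largest difference in each direction of each complex, and from other lists the genes at least 2-fold apart and up to 3 of the largest in each direction. A complex I to V was given by symbol. With 1 array per condition no test was made, and the number of arrays limits the precision. Alternatives were median scaling, the percentile over detected probes, quantile and loess normalization, normexp (limma 3.58.1 in R 4.3.3, offset 50), the authors' log2 table, other probe rules, 3 filters on dim probes and subunits only. Normexp used the median spot signal in place of the planned mean spot signal, which the columns used here do not include. Python 3.11.15 with numpy 2.4.6 and pandas 2.3.3 did the rest, and the steps were tested on simulated data.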

Additional observations from a re-analysis of the deposited data

How the results depend on the processing

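The count of genes at least 2-fold higher in Th9+IFNgamma, reported as 1, was 0 with normexp, 0 with a scaled signal of at least 100 on both arrays and 0 without the tissue isoforms, a set left out after seeing the data. The count at least 2-fold lower, reported as 1, was 2 with detection on at least 1 array, 3 with no filter on dim probes and 0 without the tissue isoforms. The count at least 1.5-fold higher, reported as 4, was 9 with median scaling, and 2 with the percentile over detected probes, with quantile normalization, with loess and with subunits only. Ndufa5 and Ndufaf7 were below this limit with that percentile, quantile normalization, loess and normexp. The count at least 1.5-fold lower, reported as 1, was 2 with quantile normalization, 2 with detection on at least 1 array, 3 with no filter and 0 without the tissue isoforms. The filters, the omitted isoforms and the limit to subunits act by their construction. So do median scaling and the percentile over detected probes, which shift every gene by the same amount. Normexp adds an offset of 50 to every signal, which by construction draws dim genes such as Cox6a2 closer to level. How much of the change of Cox6a2 comes from this was not tested, nor was the cause for the other settings. Of 524 alternative values for 44 named members, 514 lay within the spot SD of 0.14 of the reported value, and the 10 others belong to Cox6a1, Cox6a2, Cox6b2, Cox7a2l, Ndufv3, Sdha and Uqcrc2. Many of the 514 could not differ: for genes with 1 probe, the probe rules and filters return the reported value. The authors' log2 table nearly does so, and median scaling raises every gene by less than 0.14. That SD covers all signals, and it was 0.04 in the brightest class. No paired analysis was possible because each condition has 1 array. Dim signals limit Cox6a2, Cox4i2, Cox7b2, Cox8b and Cox8c, and 1 culture per condition limits every difference.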
